A study of Mus musculus with 51 samples.

Results

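The regions described here are H3K4me1 peaks that were called in mouse neural progenitors alone and never overlapped a called H3K27ac peak. They were taken from the aNPC H3K4me1 peak list, on chromosomes 1 to 19, and were chosen by overlap of called peaks. A peak was kept if it overlapped, by 1 bp or more, no H3K4me1 peak of eA or lA and no H3K27ac peak of aNPC, eA or lA. Of 150527 aNPC H3K4me1 peaks, 14754 met the rule (9.80%), and the 6 lists of the series held 784577 peaks on these chromosomes. They are called aNPC-only peaks here. Their number and their strength are descriptions, and no test was run on either.

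The study followed embryonic stem cells (ESCs) of C57/BL-6 background, with no genetic change or knockdown in the samples used here, as they became astrocytes in culture. ES-derived neural progenitors (aNPC) were grown with N2, EGF and FGF-2 and were then kept in medium with serum and LIF for 1 day (early astrocytes, eA) or 5 days (late astrocytes, lA). Chromatin with H3K27ac or H3K4me1 was immunoprecipitated and sequenced in 2 biological replicates per stage and mark, and the authors merged the replicates before peak calling. Each stage and mark therefore has 1 list, no difference between stages has a replicate error, and the read depth behind a list is unknown. How many reads a region needed to be called is unknown, so a missing peak need not be a missing mark.

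H3K4me1, the single methylation of lysine 4 of histone H3, marks enhancers and the flanks of promoters, and H3K27ac, the acetylation of lysine 27, is found where such an element is active. An element with H3K4me1 and without H3K27ac is commonly called primed. In neural progenitors, basic helix-loop-helix (bHLH) factors bind short sequences called E-boxes, and Sox and POU factors often share enhancers, whereas AP-1, STAT and TEAD factors respond to growth, cytokine and mechanical signals in many cell types.

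The stage labels were compared with promoters of marker genes. Of 10 progenitor marker genes, 9 had an H3K4me1 peak at the promoter in each of the 3 stages, and Olig2 had none at any. Of 10 astrocyte marker genes, 8 had one in aNPC and 7 at each later stage. Promoter H3K27ac was present at 8 progenitor genes in each stage, and at 7 astrocyte genes in aNPC and eA and 8 in lA. For 33 genes that mark other cell types and the order aNPC, eA, lA, the counts were 0, 3 and 2 with promoter H3K27ac and 14, 13 and 16 with promoter H3K4me1. Of the astrocyte genes, Aqp4 had promoter H3K27ac in lA alone, Gja1 in eA and lA, and S100b in aNPC alone.

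Windows of 200 bp around the summits are printed first, on the plus strand of mm9, from 5′ to 3′. Capitals mark 3 of the motifs counted below: the E-box CAGCTG, a site of bHLH factors, the E-box CAGATG, read as CATCTG on the other strand, which proneural factors such as Neurod1 and Neurog2 bind, and the AP-1 site TGANTCA of Fos and Jun dimers. A match is a string of letters and not a shown binding site. Of all 150527 aNPC H3K4me1 windows, 16.9% held CAGCTG, 18.6% held CAGATG and 7.24% held TGANTCA. The first 4 are shown because they are among the 6 aNPC-only peaks with the highest −log10 q. MACS2, the peak caller, gives −log10 q as the significance of a summit over its local background. The window of Tbc1d4, a regulator of glucose transporter trafficking, spans chr14:101928071-101928270 in an intron of that gene. That of Arhgap5, a GTPase-activating protein, spans chr12:53424369-53424568 and is intergenic, 192 kb upstream of the start site. That of Erc1, a scaffold of the presynaptic active zone, spans chr6:119756758-119756957 in an intron. That of Adcy7, an adenylyl cyclase, spans chr8:90803572-90803771 in an intron.
Tbc1d4: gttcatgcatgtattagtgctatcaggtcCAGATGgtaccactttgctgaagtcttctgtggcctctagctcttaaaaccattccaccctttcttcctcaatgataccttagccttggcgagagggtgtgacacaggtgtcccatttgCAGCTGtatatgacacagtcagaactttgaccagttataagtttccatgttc
Arhgap5: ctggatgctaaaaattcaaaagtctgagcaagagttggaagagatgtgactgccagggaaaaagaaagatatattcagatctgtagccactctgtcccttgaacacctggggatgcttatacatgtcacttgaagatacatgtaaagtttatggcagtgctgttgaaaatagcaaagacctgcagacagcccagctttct
Erc1: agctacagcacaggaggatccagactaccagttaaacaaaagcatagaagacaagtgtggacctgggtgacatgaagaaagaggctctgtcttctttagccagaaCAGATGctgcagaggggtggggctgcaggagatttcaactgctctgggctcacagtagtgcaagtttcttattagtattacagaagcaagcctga
Adcy7: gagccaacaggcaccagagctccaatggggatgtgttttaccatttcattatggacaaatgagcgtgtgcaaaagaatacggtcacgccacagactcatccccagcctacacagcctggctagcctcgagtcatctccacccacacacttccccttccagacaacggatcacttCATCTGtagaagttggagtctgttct

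The next 4 windows belong to the aNPC-only peak with the highest −log10 q in each of 4 gene lists. The lists hold proneural and neuronal factors, forebrain patterning factors, Sox and POU factors, and Notch pathway genes. Myt1l, a zinc finger factor that holds neuronal identity, has its window at chr12:30391849-30392048 in an intron. Meis2, a homeobox factor of forebrain patterning, has its window at chr2:115894095-115894294, 2.70 kb upstream of its nearest start site. Pou2f1, the ubiquitous octamer factor, has its window at chr1:167965546-167965745, 32.9 kb upstream. Maml3, a Notch coactivator, has its window at chr3:51813018-51813217 in an intron.
Myt1l: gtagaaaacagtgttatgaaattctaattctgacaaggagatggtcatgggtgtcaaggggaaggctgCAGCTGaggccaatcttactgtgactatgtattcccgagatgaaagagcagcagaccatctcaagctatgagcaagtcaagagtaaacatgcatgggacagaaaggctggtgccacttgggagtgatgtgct
Meis2: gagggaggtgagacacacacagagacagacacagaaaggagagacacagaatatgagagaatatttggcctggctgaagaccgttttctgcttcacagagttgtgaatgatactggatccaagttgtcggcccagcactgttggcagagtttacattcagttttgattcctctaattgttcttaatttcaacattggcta
Pou2f1: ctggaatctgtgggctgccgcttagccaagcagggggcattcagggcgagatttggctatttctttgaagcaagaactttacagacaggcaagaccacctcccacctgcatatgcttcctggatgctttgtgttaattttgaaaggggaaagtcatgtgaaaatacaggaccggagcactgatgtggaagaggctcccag
Maml3: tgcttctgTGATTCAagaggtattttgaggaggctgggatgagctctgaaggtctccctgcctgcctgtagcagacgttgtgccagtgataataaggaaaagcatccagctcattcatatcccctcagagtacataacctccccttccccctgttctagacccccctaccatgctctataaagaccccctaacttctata

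The last pair was chosen after the motif counts were seen, as examples of CAGCTG and AP-1, the motifs with the largest differences in share from eA-only peaks. The window near Enc1, an actin-binding protein of early neural development, at chr13:98008857-98009056, is that of the aNPC-only peak with the highest −log10 q among the 34 with 3 or more CAGCTG matches. The window near Dkk2, a secreted Wnt modulator, at chr3:131874333-131874532, comes from an H3K4me1 peak found only in eA and is the one with the highest −log10 q among those with at least 2 AP-1 matches.
Enc1: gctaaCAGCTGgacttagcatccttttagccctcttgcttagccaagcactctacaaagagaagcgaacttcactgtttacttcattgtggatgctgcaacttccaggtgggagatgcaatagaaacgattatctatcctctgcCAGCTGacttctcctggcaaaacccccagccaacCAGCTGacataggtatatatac
Dkk2: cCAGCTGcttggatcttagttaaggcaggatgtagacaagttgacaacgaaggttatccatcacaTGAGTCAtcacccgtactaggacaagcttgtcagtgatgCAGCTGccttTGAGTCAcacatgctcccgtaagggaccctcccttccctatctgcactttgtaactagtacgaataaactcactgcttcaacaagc

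Across these 4 windows of strong aNPC-only peaks, Tbc1d4 held both E-boxes, Erc1 and Adcy7 held CAGATG, and Arhgap5 held neither E-box. None of the 4 windows held an AP-1 match. Among the 4 windows from the gene lists, Myt1l held CAGCTG, Maml3 held AP-1, and Meis2 and Pou2f1 held none of the 3 motifs.

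The aNPC-only peaks were among the weak and narrow peaks of their list. Their median −log10 q was 4.86, with quartiles at 3.65 and 6.73, against a median of 11.9 for all other aNPC H3K4me1 peaks. Their median width was 226 bp against 523 bp, and their median fold enrichment at the summit was 3.39 against 4.38. Those values come from the list the rule used and carry no test. Of the peaks with a −log10 q under 3, 1094 of 3682 were aNPC-only (29.7%, 95% Wilson interval 28.3% to 31.2%). This share was 26.1% from 3 to 5, 13.9% from 5 to 10, 3.28% from 10 to 15 and 0.739% from 15 to 20, and 19 of 39236 peaks at 20 or more were aNPC-only (0.0484%). Of the aNPC-only peaks, 6857 (46.5%) had a −log10 q of 5 or more, against 80.2% of the whole list, and 889 (6.03%) had 10 or more, against 51.8%.

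**Figure D1:**
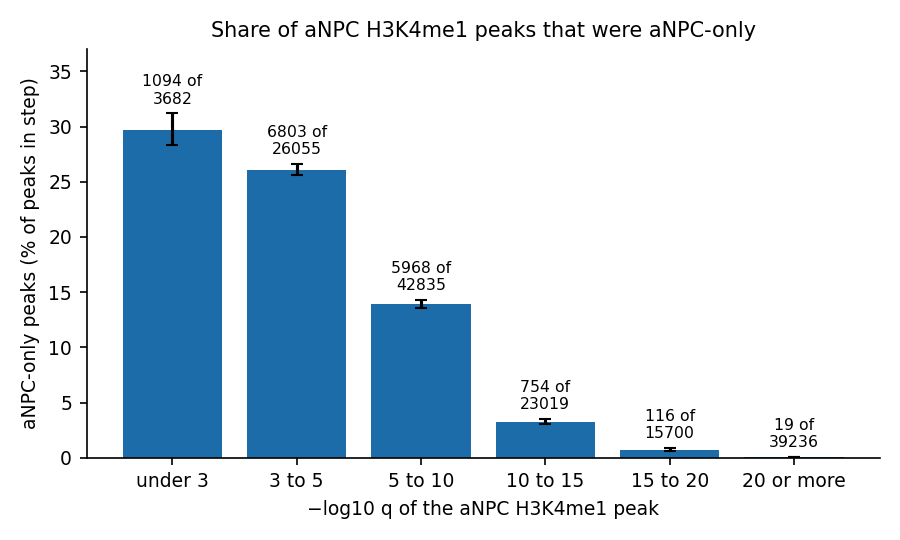
Share of aNPC H3K4me1 peaks that were aNPC-only (y axis, percent of the peaks in a step) by the −log10 q of the peak (x axis); bars are shares and lines are 95% Wilson intervals, which cover counting error only. The share falls from 29.7% in the lowest step to 0.0484% in the highest.

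The highest aNPC-only peak lay on chromosome 18, at chr18:69170190-69170797, 60.7 kb upstream of the nearest coding start site, that of 4930546C10Rik. It had a −log10 q of 35.7 and a fold of 10.4, and its nearest eA and lA H3K4me1 peaks were 5033 bp and 1205 bp away. The Tbc1d4 peak had a −log10 q of 26.4 and a fold of 8.21, and H3K4me1 peaks of eA and lA lay 779 bp and 771 bp away. The Arhgap5 and Erc1 peaks each had a −log10 q of 25.7 and a fold of 8.57. The Adcy7 peak had 24.8 and 8.37. Next came a peak 336 kb upstream of Arrdc3, which encodes an arrestin-domain protein, with a −log10 q of 23.8. The peaks nearest to the start sites of 1700019A02Rik and BC048355 both had a −log10 q of 22.8 and lay in introns of Pms1, a mismatch repair gene, and Cul9, a cullin. The last of the 10 strongest lay in an exon annotated to 9930021D14Rik and Mlst8, with a −log10 q of 22.6 and a fold of 2.79. Of these 10, the peak in Pms1 was the most isolated from later H3K4me1, with 34085 bp to the nearest eA peak and 33019 bp to the nearest lA peak.

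Leaving the H3K27ac condition out, 18915 aNPC H3K4me1 peaks (12.6%) overlapped no H3K4me1 peak of eA or lA, and 4161 of these overlapped H3K27ac at some stage. That H3K27ac was in aNPC for 3356 and in eA or lA for 2164, and some peaks count under both. A further 14484 peaks without H3K27ac at any stage (9.62%) were shared with eA H3K4me1 but not with lA, and 4433 (2.94%) with lA but not eA. H3K4me1 at all 3 stages without H3K27ac was found at 33201 peaks (22.1%). At the edge of the rule, 198 aNPC-only peaks lay within 10 bp of a peak of another list, of which 15 touched one. Their median −log10 q was 4.86 and their median width 214 bp. Just outside the rule were 177 peaks whose largest overlap was at most 10 bp, with a median −log10 q of 4.47 and a median width of 210.0 bp.

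Many aNPC-only peaks lay near an H3K4me1 peak of a later stage, whether or not that peak was also called in aNPC. The median gap was 2096 bp to the nearest eA H3K4me1 peak and 2578 bp to the nearest lA one. An eA or lA H3K4me1 peak lay within 1 kb of 6168 aNPC-only peaks (41.8%, 41.0% to 42.6%), and none lay within 10 kb of 1612 (10.9%, 10.4% to 11.4%). H3K27ac was farther off, with a median gap of 5152 bp to the nearest peak of any stage, 3203 peaks within 1 kb (21.7%) and 4756 beyond 10 kb (32.2%). By stage, the median gap to H3K27ac was 8341 bp (aNPC), 10148 bp (eA) and 9579 bp (lA). Both marks were over 10 kb away for 1465 aNPC-only peaks (9.93%). The nearest other aNPC H3K4me1 peak had an eA or lA H3K4me1 peak in 11975 cases (81.2%), against 87.4% of all aNPC H3K4me1 peaks. The rule itself asked for a gap, so these distances carry no test.

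**Figure D2:**
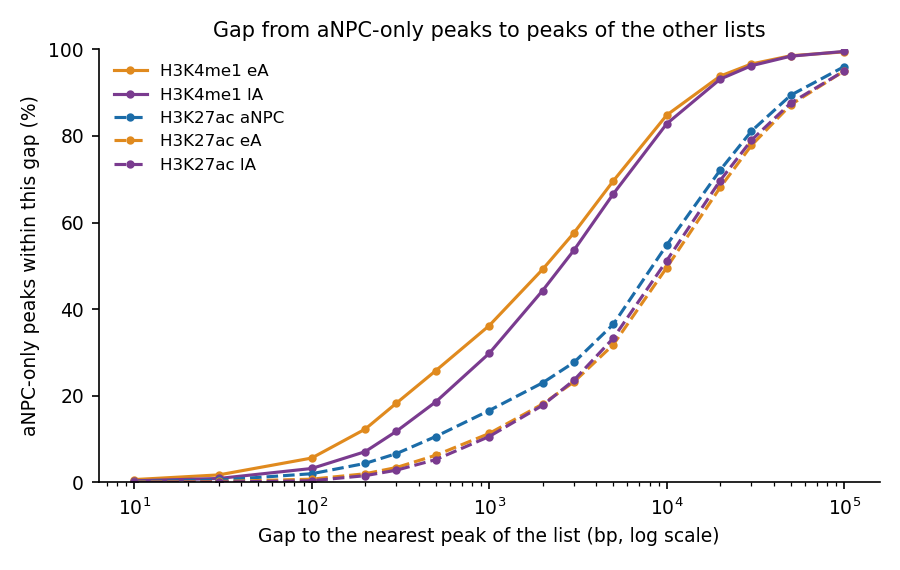
Cumulative share of aNPC-only peaks (y axis, percent) by the gap to the nearest peak of each other list (x axis, bp, log scale); solid lines are H3K4me1 and dashed lines H3K27ac. H3K4me1 of eA and lA lay nearer, with medians of 2096 bp and 2578 bp, than H3K27ac of any stage, with medians of 8341 bp to 10148 bp.

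Most aNPC-only peaks lay far from promoters. A promoter, here the 1 kb before a coding start site and the 100 bp after it, held the centre of 430 (2.91%, 2.66% to 3.20%), an exon 525 (3.56%), an intron 6907 (46.8%) and intergenic sequence 6892 (46.7%). The median distance to the nearest coding start site was 36.0 kb, against 25 kb for all other aNPC H3K4me1 peaks. Only 4.39% lay within 1 kb of a start site, against 12.7% of the whole list, and 34.7% lay from 10 to 50 kb, 22.4% from 100 to 500 kb and 2.79% beyond 500 kb. The share at promoters among all other aNPC H3K4me1 peaks was 8.02%, among those with H3K4me1 at all stages and no H3K27ac 4.92%, and among peaks with H3K4me1 and H3K27ac in aNPC alone 3.81%.

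Position is not part of the rule and was compared with peaks chosen in the same way at the other stages. These were 16674 eA-only and 50637 lA-only H3K4me1 peaks, each free of H3K4me1 at the other stages and of H3K27ac at all 3. The tests were two-sided Fisher's exact tests over peaks with Benjamini-Hochberg adjustment over 8 tests. Peaks are not replicates of a stage, so a test compares merged lists, and for promoters, CAGCTG and AP-1 the number of chromosomes out of 19 with the same direction is given. All 4 position classes differed from eA-only peaks (100%) and 3 of 4 from lA-only peaks (75%). Promoters held 2.91% of aNPC-only, 1.82% of eA-only and 1.38% of lA-only peaks. The odds ratio was 1.62 (1.40 to 1.88) against eA-only peaks, with an exact adjusted p of 3.47e-10 and a higher share on 15 of 19 chromosomes. Against lA-only peaks it was 2.14 (1.89 to 2.41), with an exact adjusted p of 2.66e-31 and a higher share on 19 of 19. When peaks within 1 kb of any other list's peak were left out of each class, the promoter difference from eA-only peaks was lost, with an odds ratio of 1.03 (0.801 to 1.32) and an exact adjusted p of 0.848. Exons held a lower share than in eA-only peaks (odds ratio 0.855, exact adjusted p = 0.00949), a call lost with 50% overlap (0.927, adjusted p = 0.118) and with no other peak within 1 kb (0.961, adjusted p = 0.728), and a higher share than in lA-only peaks (1.70, adjusted p = 6.08e-21). Introns held a lower share than in both, with odds ratios of 0.908 (exact adjusted p = 3.37e-05) and 0.913 (adjusted p = 2.61e-06). Intergenic sequence held a higher share than in eA-only peaks (1.08, exact adjusted p = 0.00109), a call lost with 50% overlap (1.03, adjusted p = 0.103), and the odds ratio against lA-only peaks was 0.972 (0.937 to 1.01, adjusted p = 0.131). This last difference passed in 3 of 8 alternatives, each with a lower aNPC-only share, at 0.953 with the summit in no other peak (exact adjusted p = 0.00452), 0.936 with 50% overlap (adjusted p = 3.72e-05) and 0.934 at equal list lengths (adjusted p = 2.00e-04).

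**Figure D3:**
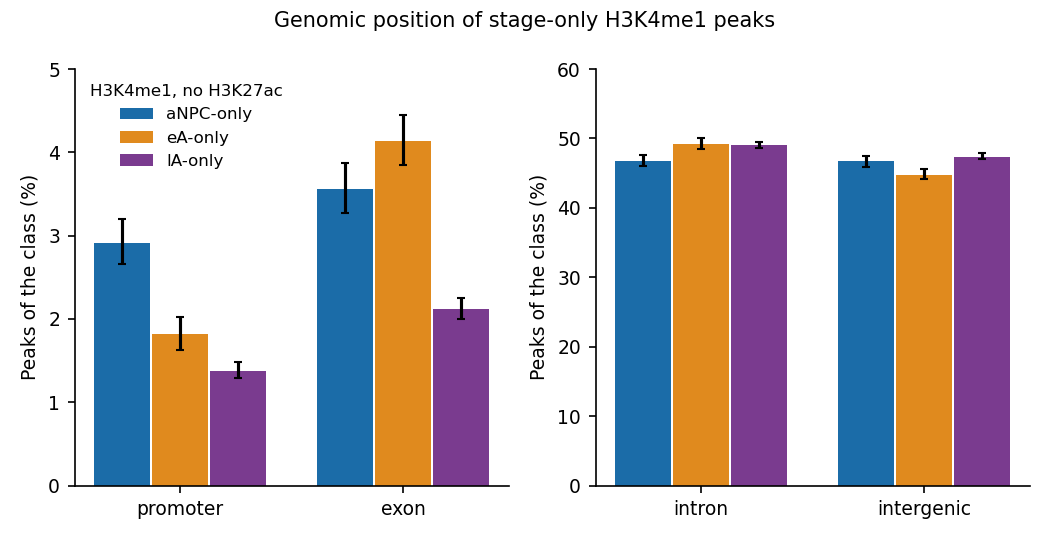
Share of aNPC-only, eA-only and lA-only H3K4me1 peaks without H3K27ac (y axis, percent of the class) at promoters and exons on the left and in introns and intergenic sequence on the right; lines are 95% Wilson intervals. Promoters held 2.91%, 1.82% and 1.38% of the 3 classes, and the intron and intergenic shares lay between 44.8% and 49.2%.

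The 430 promoter peaks belonged to 415 genes. Their median −log10 q was 5.03, against 15.8 for the 10885 other aNPC H3K4me1 peaks at promoters, and both sets had a median GC content of 51.0%. The highest lay 0.589 kb upstream of Lrrn1, a leucine-rich repeat membrane protein, with a −log10 q of 19.1, and H3K27ac peaks of aNPC, eA and lA lay 352, 341 and 420 bp away. The promoter peak of Commd1, a copper and NF-kappaB regulator, followed with 16.3, and that of Spata20 with 15.6. The promoter peak of Afap1, an actin filament adaptor, had 15.1, with H3K27ac 230 bp away in aNPC. Etfa, an electron transfer flavoprotein subunit, had 13.8, with H3K27ac 74 bp away in aNPC. The other promoter peaks among the 8 highest were those of 4931440P22Rik with 14.7, Cttnbp2 with 14.3 and Ccdc19 with 13.8. Of the 8, the Spata20 and Ccdc19 peaks had no H3K27ac within 2 kb at any stage, the nearest being 9315 bp and 21256 bp away.

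Sequence content was compared over the same 200 bp windows. The median GC content was 48.0% for aNPC-only and eA-only windows and 46.0% for lA-only windows, and 15%, 15.5% and 24.0% of these held no CpG. For 16 motifs, the share of windows with at least 1 exact match on either strand was tested against eA-only and lA-only peaks, with adjustment over 32 tests. The motifs, besides those above, were the POU octamer ATGCAAAT, the SOX site AACAAAG, the homeobox site TAATTA, the NF1 half-site TTGGCA and the full NF1 site, a palindrome that shares the first letters of the half-site, RUNX TGTGGTT, STAT TTCCNGGAA, TEAD GGAATG, RBPJ GTGGGAA, TCF/LEF ATCAAAG, the GC box GGGCGG of Sp and Klf factors, the RFX X-box and ATF TGACGTCA. Against eA-only peaks, 5 of 16 motifs were more frequent in aNPC-only windows (31.2%) and 4 were less frequent (25%). Against lA-only peaks, 9 were more frequent (56.2%) and 4 less (25%). The same 5 motifs were higher against both, namely both E-boxes, octamer, SOX and RFX, and the same 3 were lower against both, namely AP-1, STAT and TEAD.

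CAGCTG was the motif with the largest gain in share. It was present in 20.3% of aNPC-only windows, 15.2% of eA-only and 10.9% of lA-only windows. The odds ratio was 1.42 (1.34 to 1.51, exact adjusted p = 9.26e-32) against eA-only and 2.09 (1.99 to 2.19, adjusted p = 5.13e-179) against lA-only peaks, and the share was higher on 19 of 19 chromosomes in both. By chromosome, the aNPC-only share ran from 16.8% to 24.4%, the eA-only share from 13.5% to 18.2% and the lA-only share from 9.57% to 12.1%, so the ranges of aNPC-only and lA-only did not overlap. Peaks with H3K4me1 at all stages and no H3K27ac held CAGCTG in 16.9%, and peaks with H3K4me1 and H3K27ac in aNPC alone in 17.4%. Among windows of 40% to 50% GC, the odds ratios were 1.42 and 1.84. CAGATG was present in 21.8%, 18.4% and 16.0% of aNPC-only, eA-only and lA-only windows, with odds ratios of 1.23 (exact adjusted p = 6.52e-13) and 1.47 (adjusted p = 2.85e-57).

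The 10 E-box cores were then counted, a choice made after these results were seen, and no test was run on them. CACCTG was present in 18.7% of aNPC-only windows (18.1% to 19.3%), against 14.8% of eA-only and 12.9% of lA-only windows. With CAGCTG and CAGATG it was 1 of 3 cores that differed from eA-only windows by more than 1 percentage point, and the other 7 of 10 differed by less. At least 2 CAGCTG matches were found in 391 aNPC-only windows (2.65%, 2.40% to 2.92%), in 1.37% of eA-only and 0.681% of lA-only windows. CAGCTG matches were densest near the summit in all 3 classes. In aNPC-only windows there were 125 matches per 1000 windows within 50 bp of the summit and 62.4 at 200 to 250 bp, against 87.6 and 56.1 in eA-only windows. NF1 half-sites fell likewise over these distances, from 98.4 to 55.1 in aNPC-only and from 103 to 69.1 in eA-only windows. The Enc1 and Dkk2 windows above show how unevenly single sites follow these shares, since the eA-only Dkk2 window holds 2 CAGCTG matches beside its 2 AP-1 matches.

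AP-1 was the motif with the largest deficit against eA-only peaks. It was present in 5.51% of aNPC-only windows, 12.6% of eA-only and 7.98% of lA-only windows. The odds ratios were 0.406 (0.373 to 0.441, exact adjusted p = 7.79e-106) and 0.672 (0.622 to 0.726, adjusted p = 1.27e-24), and the aNPC-only share was lower on all 19 chromosomes in both. By chromosome, it ran from 3.63% to 6.34%, below the lA-only range of 6.71% to 9.06%. The eA-only share had a median of 12.8% and a highest value of 14.4%, and its range lay above those of both other classes. In eA-only windows there were 70.2 AP-1 matches per 1000 windows within 50 bp of the summit, 70.3 at 50 to 100 bp and 47.1 at 200 to 250 bp, and in aNPC-only windows 29.1, 28.9 and 26.0. Peaks with H3K4me1 at all stages and no H3K27ac held AP-1 in 7.49%, and those with both marks in aNPC alone in 5.56%.

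STAT matches, the sites of Stat3 and its relatives, were rare, at 0.468% of aNPC-only, 0.918% of eA-only and 0.999% of lA-only windows, with odds ratios of 0.507 (exact adjusted p = 4.72e-06) and 0.466 (adjusted p = 3.65e-10). TEAD matches were present in 10.5%, 11.8% and 19.4%, and the odds ratio of 0.488 against lA-only peaks (exact adjusted p = 3.05e-150) was the lower one, beside 0.872 against eA-only peaks (adjusted p = 2.71e-04). In peaks with H3K4me1 and H3K27ac in aNPC alone, STAT was present in 0.451% and TEAD in 9.26%. With H3K4me1 at all stages and no H3K27ac, these shares were 0.747% and 13.4%. When aNPC-only peaks had to reach a −log10 q of 5, the TEAD difference from eA-only peaks was lost (odds ratio 0.905, exact adjusted p = 0.103), and also when peaks of all lists had to (0.946, adjusted p = 0.230).

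The POU octamer was present in 2.02% of aNPC-only, 1.35% of eA-only and 1.41% of lA-only windows, with odds ratios of 1.51 (exact adjusted p = 9.28e-06) and 1.44 (adjusted p = 1.04e-06). Peaks with H3K4me1 at all stages and no H3K27ac held it in 1.77% (1.63% to 1.92%), beside an aNPC-only interval of 1.80% to 2.26%. Those with both marks in aNPC alone held it in 1.25%. SOX was present in 7.56%, 6.45% and 6.66%, with odds ratios of 1.19 (exact adjusted p = 2.71e-04) and 1.15 (adjusted p = 3.49e-04). The SOX differences were lost when only peaks with a −log10 q of 5 to 10 were compared, at 1.16 (exact adjusted p = 0.0783) and 1.10 (adjusted p = 0.127), and that against lA-only peaks also when aNPC-only peaks had to reach 5 (1.10, adjusted p = 0.103). RFX matches were found in 0.468%, 0.306% and 0.192%, and the call against eA-only peaks (odds ratio 1.53, exact adjusted p = 0.0324) held in 1 of 9 alternatives. The NF1 half-site, bound by nuclear factor I proteins such as Nfia, was present in 17.1%, 18.1% and 15.4%, lower than in eA-only (0.934, exact adjusted p = 0.0324) and higher than in lA-only windows (1.13, adjusted p = 2.20e-06). The NF1 difference from eA-only peaks held in 5 of 9 alternatives, and that from lA-only peaks in 8 of 9, lost in 500 bp windows (1.02, exact adjusted p = 0.337). GC boxes were present in 4.41%, 3.96% and 2.05%, with an odds ratio of 2.21 against lA-only peaks (exact adjusted p = 8.56e-50) and of 1.12 against eA-only peaks (1.00 to 1.25, adjusted p = 0.0667), which passed in 3 of 9 alternatives. Of all aNPC H3K4me1 windows, 5.41% held a GC box, more than of aNPC-only windows. The odds ratio of homeobox sites missed the threshold in both comparisons (1.07 against eA-only peaks, exact adjusted p = 0.304), but against eA-only peaks it passed in 6 of 9 alternatives, at 1.08 to 1.26. Against lA-only peaks it passed in 3 of 9, at 0.863 with no other peak within 1 kb, at 0.935 in 500 bp windows and, in the other direction, at 1.14 among windows of 40% to 50% GC. TCF/LEF and ATF sites missed it in both. RUNX, RBPJ and the NF1 full site passed it against lA-only peaks alone, in 7, 8 and 8 of 9 alternatives, and the NF1 full site also passed against eA-only peaks when all lists had to reach a −log10 q of 5 (2.63, exact adjusted p = 0.0255).

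**Figure D4:**
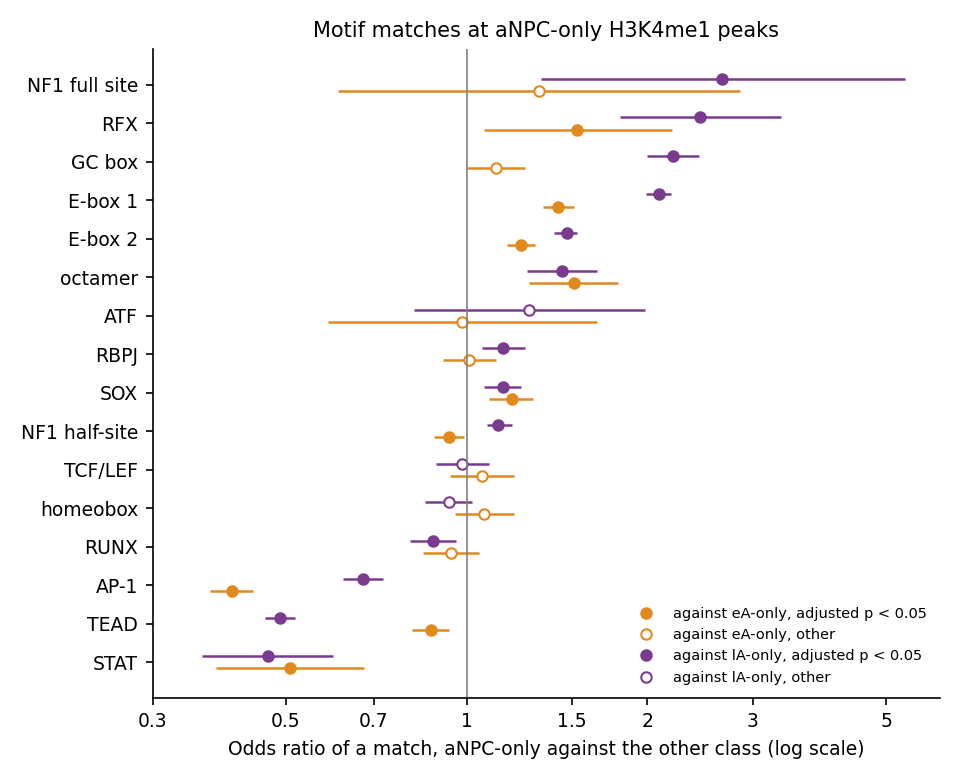
Odds ratio of a motif match in the 200 bp summit window (x axis, log scale), aNPC-only against eA-only peaks in orange and against lA-only peaks in purple, for 16 motifs (y axis); lines are 95% intervals and filled points have an exact adjusted p under 0.05. E-box 1, which stands for CAGCTG, lies at 1.42 and 2.09, E-box 2, which stands for the core CAGATG, at 1.23 and 1.47, and AP-1 at 0.406 and 0.672.

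The aNPC-only peaks differed among themselves in E-box and AP-1 content. CAGCTG was present in 17.2% (16.3% to 18.2%) of those within 1 kb of an eA or lA H3K4me1 peak, in 22.7% (21.8% to 23.7%) of those at 1 to 10 kb and in 21.3% (19.4% to 23.4%) of those beyond 10 kb. It was present in 14.7% (11.6% to 18.3%) of promoter, 24.6% (21.1% to 28.4%) of exon and 20.6% (19.7% to 21.6%) of intergenic peaks. By −log10 q it was 19.1% under 5, 21.6% from 5 to 10 and 22.2% at 10 or more. AP-1 was present in 5.66%, 5.48% and 4.39% of these 3 steps. By distance to eA or lA H3K4me1, AP-1 was present in 5.63% (5.08% to 6.23%) within 1 kb, 4.96% (4.48% to 5.50%) at 1 to 10 kb and 7.44% (6.26% to 8.83%) beyond 10 kb, and the interval of the last holds the 7.98% of all lA-only windows. These groups were chosen after the counts were seen and carry no test.

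Each peak took the gene of its closest coding start site, provided that it was genic or at a promoter, or that this site was at most 50 kb away. Of 117956 aNPC H3K4me1 peaks given a gene, 10974 were aNPC-only (9.30%). Of 16848 genes with an aNPC H3K4me1 peak, 5958 had at least 1 aNPC-only peak (35.4%). Most of these had few, with 3564 genes at 1 peak, 1309 at 2 and 43 at 10 or more. The median gene length was 35.7 kb for genes with an aNPC-only peak and 20.7 kb for all genes with an aNPC H3K4me1 peak.

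Auts2, a gene of neuronal migration and transcription control, had the most, with 31 aNPC-only of 126 aNPC H3K4me1 peaks (24.6%, 17.9% to 32.8%), 30 of them in introns. Of its 126 peaks, 70 were also called in both eA and lA, and 43 overlapped aNPC H3K27ac. The cell adhesion genes Dscaml1 and Pcdh9 had 16 each, of 58 and 79 peaks. Opcml and Ntm, which encode IgLON adhesion proteins, had 15 of 119 and 13 of 113. Pcdh15, known for the hair cell tip link, had 15 of 58. Arid1b, a subunit of the BAF remodelling complex, had 14 of 84, Nckap5 14 of 119, and Rapgef5, an exchange factor for Rap proteins, 13 of 81. The netrin receptor gene Dcc had 12 of 47 (25.5%, 15.3% to 39.5%), 12 of them intronic. At Dcc, 14 peaks were called in both later stages, and the lA list held 39 peaks, of which 19 were lA-only. At Dscaml1, 26 peaks were called in both later stages, and 2 of its 30 lA peaks were lA-only.

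The gene lists were compared with the 9.30% of all peaks given a gene, as counts with no test, and the intervals cover counting error only. The Hox clusters had 13 of 70 peaks (18.6%, 11.2% to 29.2%), in 7 of 28 genes (25%), against 35.4% of all genes with a peak. With a −log10 q of 5 required in all lists, the Hox share was 11.4% (5.91% to 21.0%), against 7.51% of all peaks given a gene and 11.7% of the pluripotency list. Hoxa13, a posterior Hox gene, had 3 of 4 and Hoxa9 3 of 3, and Hoxd10 had 2 of 2. In eA, no H3K4me1 peak was called at Hoxa9 or Hoxd10. Genes of neuronal and glial adhesion had 158 of 1184 (13.3%, 11.5% to 15.4%). These lay in 29 of 36 genes (80.6%), against 35.4% of all genes with a peak, with no adjustment for peaks per gene. The median −log10 q of the aNPC-only peaks was 5.28 in the Hox list and 5.04 in the adhesion list. Over all aNPC H3K4me1 peaks of a list it was 7.25 (Hox) and 9.17 (adhesion), against 10.6 for the whole aNPC list. Weaker peaks were more often aNPC-only, and the part of peak strength in these 2 shares was not tested.

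Transcription factors of the forebrain and of neural fate were counted next, and differences between these lists were not tested. Forebrain patterning factors had 41 of 309 (13.3%, 9.93% to 17.5%), led by Pax7 and Irx3 with 5 each and Meis2 and Pax3 with 4 each. With a −log10 q of 5 required in all lists, the patterning share was 8.09% (5.54% to 11.7%), near the 7.51% of all peaks in that setting. Sox and POU factors had 41 of 312 (13.1%, 9.84% to 17.3%), of which 12 fell to Sox6, 5 to Sox5 and 4 each to Pou2f1 and Pou3f3. With a −log10 q of 5 required in all lists, their share was 11.5% (8.45% to 15.6%), against 7.51%. With no other peak within 1 kb it was 5.77% (3.68% to 8.93%), near the 4.88% of all peaks in that setting. At Pou3f3, a factor of cortical progenitors, 4 of 13 peaks were aNPC-only, and at Sox2, the progenitor factor, 4 of 20. Pax6, a factor of eye and cortical progenitors, had 4 of 16, and the 10 progenitor marker genes together had 18 of 127 (14.2%, 9.16% to 21.3%). Proneural and neuronal factors had 44 of 407 (10.8%, 8.15% to 14.2%), with 6 of 54 at Myt1l, 5 of 50 at Ebf1 and 4 of 23 at Bcl11b. The Myt1l peak printed above had a −log10 q of 18.1, the highest in this list, and lay 22 bp from an eA H3K4me1 peak.

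FGF and EGF receptors with their feedback genes had 37 of 385 (9.61%, 7.05% to 13.0%), led by Etv1 with 6 and by the phosphatase gene Dusp4 with 4. These 37 peaks lay in 18 of 22 genes (81.8%), against 35.4% of all genes with a peak. A gene with more peaks has more chances to hold an aNPC-only one, and the gene counts were not adjusted for this. The Wnt list had 48 of 508 (9.45%), with 6 at Wnt5a and 5 each at the receptor genes Fzd9 and Lrp6 and at Ctnnb1, which encodes beta-catenin. The Fzd9 list leader had a −log10 q of 15.2 and lay 132 bp from an eA H3K27ac peak. The Notch list had 18 of 273 (6.59%), in 10 of 24 genes (41.7%, against 35.4%), and its interval reached above the 9.30% of all peaks given a gene. Where an overlap had to cover 50% of the peak its share was 15%, against 14.2% of all peaks given a gene, and at equal list lengths it was 13.6% against 13.3%. With no other peak within 1 kb it was 1.47% against 4.88%. In it, Maml3 and Notch2 had 4 each and the ligand gene Dll1 had 2. Axon guidance genes had 97 of 982 (9.88%), with 9 at Nrp2 beside those of Dcc, and synapse and receptor genes had 61 of 769 (7.93%, 6.22% to 10.1%), with 7 of 54 at Nrxn3, a presynaptic adhesion gene, and 6 each at Dlg2 and Nlgn1. Cyclins and CDK inhibitors had 27 of 205 (13.2%, 9.21% to 18.5%). With a −log10 q of 5 required in all lists they had 8.78% (5.63% to 13.5%), against 7.51% of all peaks given a gene. Under the main rule, Cdkn1a, the p21 gene of cell cycle arrest, had 5 of 14, and Mki67, a marker of cycling cells, had 3 of 11.

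Lineage lists were counted in the same way, and differences between them were not tested. Astrocyte genes had 52 of 449 (11.6%, 8.94% to 14.9%), with 9 each at Slc4a4, a bicarbonate cotransporter gene, and Nfib, 6 of 71 at Nfia and 4 of 7 at S100b. The astrocyte share was 7.57% (5.47% to 10.4%) with a −log10 q of 5 required in all lists, against 7.51% of all peaks, and 3.56% (2.21% to 5.71%) with no other peak within 1 kb, against 4.88%. Oligodendrocyte genes had 19 of 194 (9.79%), with 4 of 20 at Olig1, one of which had a −log10 q of 17.1. Pluripotency genes had 14 of 111 (12.6%, 7.66% to 20.1%), with 3 at Tet2 and 2 each at Dppa3, Klf4 and Tet1. Genes that mark other cell types had 19 of 168 (11.3%, 7.36% to 17.0%). At Myod1, the muscle factor, 5 of 6 peaks were aNPC-only, and 2 H3K4me1 peaks were called in each of eA and lA. At Foxa2, a factor of endoderm and floor plate, 2 of 4 were aNPC-only.

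**Figure D5:**
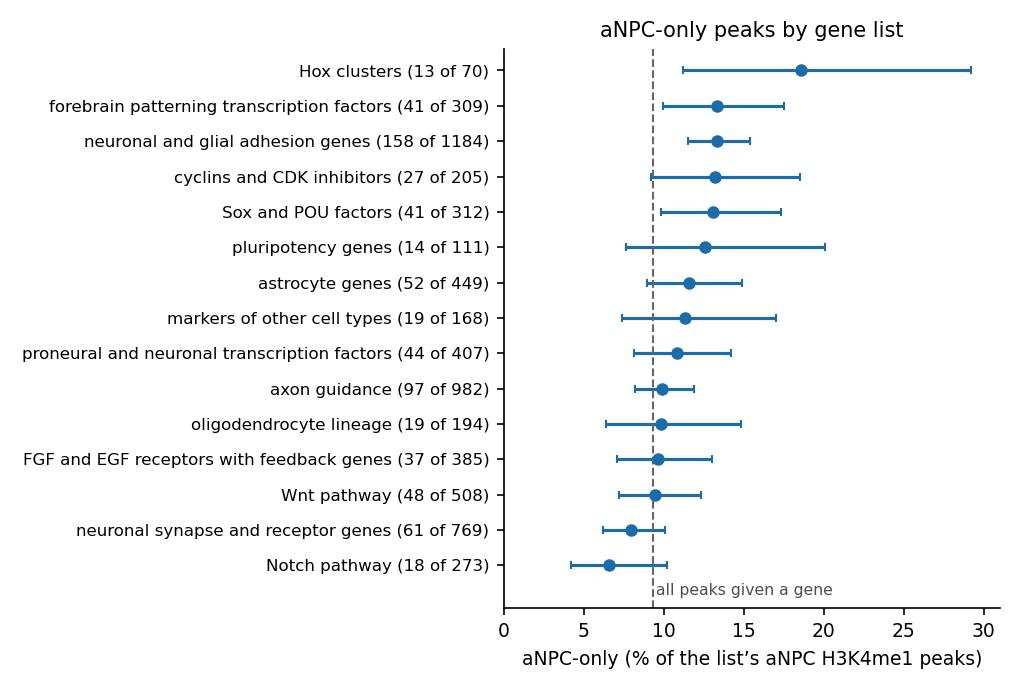
Share of the aNPC H3K4me1 peaks of each gene list that were aNPC-only (x axis, percent; counts beside the names); points are shares, lines are 95% Wilson intervals and the dashed line is the 9.30% of all peaks given a gene. The Hox list lies at 18.6% with a wide interval, the adhesion list at 13.3% and the Notch list at 6.59%.

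Genes that the study names for H3K4me1 sites were looked up one by one, with Neurod4, a relative of Neurod1, added to them. S100b, an astrocyte calcium-binding protein, had 4 of 7 (57.1%, 25% to 84.2%), 1 of them in its own intron, 1 in an intron of Dip2a at 34.6 kb from the S100b start site, and 2 intergenic. The highest was the one in its own intron, with a −log10 q of 6.38 at 1.41 kb from the start site. Aldh1l1, an astrocyte folate enzyme, had 3 of 18, Rbfox3, the NeuN gene, 2 of 22, and the proneural genes Neurod4 and Neurog2 2 of 7 and 1 of 4. The promoter peak of Neurod4, 0.305 kb upstream of its start site, had a −log10 q of 6.17, and the nearest lA H3K4me1 peak was 13060 bp away. An eA H3K4me1 peak lay 22 bp from that Neurod4 peak. The promoter peak of Rbfox3, 0.225 kb upstream, had 5.13, with eA H3K4me1 178 bp away. Cd44, a hyaluronan receptor gene, had 1 of 20, with a −log10 q of 14.6. Gfap, Aqp4, Aldoc, Neurod1 and Neurog1 had 0 of 2, 0 of 16, 0 of 3, 0 of 2 and 0 of 4, which allows shares of up to 65.8%, 19.4%, 56.1%, 65.8% and 49.0% (Wilson upper bounds). At Aqp4, the astrocyte water channel gene, 14 of 16 aNPC H3K4me1 peaks were called in both later stages.

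Some aNPC-only peaks followed each other along the chromosome. Of the 14754, 26.6% had an aNPC-only peak as the neighbour in the aNPC H3K4me1 list, and 73.4% stood singly. As 9.80% of that list was aNPC-only, some such neighbours arise without any grouping. Their expected share was not computed, so the 26.6% is not a measure of grouping. The longest series held 6 in a row and occurred 2 times, both outside coding genes. The one over 18.7 kb had Eif4e, a translation initiation factor gene, as its closest coding start site. For the one over 1381 kb this was Cdh2, the N-cadherin gene, which need not lie near it. Series of 5 lay at Myod1 over 6.10 kb, Ttc7b over 13.9 kb, Dscaml1 over 16.6 kb, Auts2 over 27.1 kb and Acan, the aggrecan gene, over 41.8 kb. A series of 4 spanned Hoxa9 and Hoxa10 over 8.44 kb. By chromosome, the share of aNPC-only peaks ran from 8.60% to 11.1%, with a median of 9.94%.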

How the data were processed

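ChIP-seq of H3K4me1 and H3K27ac in aNPC, eA and lA was analysed. Of the 51 samples, 8 RNA samples whose labels conflict stayed unassigned, and no RNA sample was used. The authors aligned reads to mm9 with Bowtie (unique alignments), handled them with SAMtools 0.1.19, merged the 2 replicates and called peaks with MACS2 without input. The deposited lists give each peak a score, a fold enrichment as a ratio, a −log10 q and a summit offset, as the authors' caller wrote them. Read depth is not given, so the calling threshold in reads is unknown. No −log10 q value was compared between lists, but 2 alternatives set the same −log10 q limits in all lists, and one −log10 q may stand for different read numbers in each.

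Overlaps of 1 bp or more, annotation and motifs were computed with Python 3.11.15, NumPy 2.4.6, SciPy 1.17.1, pandas 2.3.3, pysam 0.24.0 and samtools 1.23.1, and plots with matplotlib 3.10.9. Annotation came from GENCODE vM1 and sequence from NCBIM37, the same build as mm9. A promoter was a peak centre from 1 kb upstream to 100 bp downstream of one of 46006 coding start sites. Peaks were given a gene when genic, at a promoter or at most 50 kb from its start site. Motifs were exact matches on both strands in 200 bp windows. Two-sided Fisher's exact tests were adjusted by Benjamini-Hochberg over 8 annotation and 32 motif tests (threshold 0.05) and checked on simulated data. Wilson 95% intervals cover counting error only.

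The named genes were the 10 with the most aNPC-only peaks, the 10 highest peaks, up to 4 genes per list with the most aNPC-only peaks, and genes the study names for H3K4me1 sites, to which Neurod4 was added. The members and lists were chosen with earlier results of these data known. E-box cores, CAGCTG copies, match positions, runs, distance groups, the 8 highest promoter peaks and the Enc1 and Dkk2 windows were chosen after the motif counts were seen. Alternatives changed the overlap, the peak threshold, list length, the promoter, the window and GC content. Sox1, Spi1, Myrf and Tfcp2l1 were not matched in the annotation. Repeats were not analysed because the genome used is not soft-masked. A few items that these rules name are not reported here.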

Additional observations from a re-analysis of the deposited data

Results flagged for a closer look

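On chromosome X, which the comparisons did not use, 493 of 3674 aNPC H3K4me1 peaks met the same overlap rule (13.4%, 12.4% to 14.6%), against 9.80% on the autosomes. Their median −log10 q was 4.86, and CAGCTG was present in 19.1% and AP-1 in 6.90% of their windows. The difference from the autosomes was not tested.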

How the results depend on the processing

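The number of aNPC-only peaks was 14754. It was 22295 where an overlap had to cover 50% of the peak, 8041 with no other peak within 1 kb, 6857 with a −log10 q of at least 5 and 5968 with a −log10 q of 5 to 10 in each class, the last chosen after seeing the data. The promoter odds ratio against eA-only peaks fell from 1.62 to 1.03 with no other peak within 1 kb, and the cause was not tested. The motifs lower than in eA-only peaks numbered 4, and 2 when aNPC-only peaks, or peaks of all lists, had to reach a −log10 q of 5. Both E-boxes, octamer, AP-1 and STAT kept direction and call in 9 of 9 alternatives against both classes. Some odds ratios that had missed the threshold crossed 1, and the cause was not tested; of these, the homeobox value at 40% to 50% GC passed it. Intergenic against lA-only passed below 1 in 3 of 8 alternatives, at 0.953, 0.936 and 0.934 with the summit rule, 50% overlap and equal list lengths, and was 1.03 with no peak within 1 kb, 1.00 when all lists had to reach 5 and 1.01 at 5 to 10. TCF/LEF against eA-only was 0.981, 0.992 and 0.991 with no peak within 1 kb, the threshold in all lists and equal list lengths, and against lA-only 1.02, 1.01 and 1.13 with the threshold for aNPC-only peaks, at 5 to 10 and at 40% to 50% GC. RBPJ against eA-only was 0.985, 0.974 and 0.939 with the threshold for aNPC-only peaks, equal list lengths and at 5 to 10. Homeobox against lA-only was 1.00, 1.02 and 1.14 with the threshold for aNPC-only peaks, at 5 to 10 and at 40% to 50% GC. RUNX against eA-only was 1.06 in 500 bp windows and the NF1 full site 0.773 at 40% to 50% GC. The order of the gene lists by share changed with the setting: the Hox share ran from 11.4%, under the 3 q settings in which all peaks given a gene gave 3.77% to 7.51%, to 22.9% under the summit rule (all peaks 12.9%), and the Notch share from 1.47%, where all peaks gave 3.77% to 4.88%, to 15% with 50% overlap (all peaks 14.2%). No paired analysis was possible because each list merges both replicates, and for the same reason no replicate could be left out. Shares of peaks in repeats were not computed, because the genome used carries no repeat marks. Unknown depth limits every statement that a peak is missing.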
